A study of Mus musculus with 2 samples.

Results

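The genes described are 10 genes of acid secretion by the parietal cell, taken from a list of pump, ion transport and regulator genes, out of 37681 gene identifiers counted in the study. All 10 were found by symbol and identifier. RNA was sequenced from epithelium of the stomach corpus of C57BL/6 mice, all carrying the Hdc-CFP transgene, a reporter in which cells using Hdc, the gene of histidine decarboxylase, make a cyan fluorescent protein. The Hdc-CFP-positive group was 1 library from cells sorted for the reporter, and the Hdc-CFP-depleted group was 1 library of corpus epithelium from which such cells had been depleted. The sources used here do not give age, sex, how many mice were pooled or the transgene's driver elements. The study concerned the cellular origins of histamine-making and serotonin-making cells of the corpus, an epithelium in which parietal cells are a main cell type.

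Parietal cells acidify the stomach with the H,K-ATPase, a pump in the apical canalicular membrane that exports protons in exchange for potassium. Carbonic anhydrase supplies the protons from carbon dioxide and water, chloride follows through apical channels and transporters, and the bicarbonate left behind leaves across the basolateral membrane in exchange for chloride. Histamine from enterochromaffin-like (ECL) cells, the endocrine cells that express Hdc, drives this secretion through the H2 receptor. Within the corpus, 6 of the genes are known mainly from parietal cells (Atp4a, Atp4b, Slc26a7, Clic6, Aqp4 and Esrrg, here called parietal-restricted). The other 4 are also known from other corpus cells (Slc4a2, Slc26a9, Slc9a4 and Car2, here called shared).

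The Hdc-CFP-positive library held 10736538 counts in genes and the Hdc-CFP-depleted library 50928524. Levels are CPM, the counts of a gene per 1000000 counts after trimmed-mean scaling, and brackets hold 95% intervals for counting error alone. As each group was 1 library, differences have no replicate check and were not tested, and they compare these libraries, not the conditions. The sort was visible in Hdc, at 8750.2 CPM in the Hdc-CFP-positive and 21.2 CPM in the Hdc-CFP-depleted library. The 5 endocrine markers, Hdc among them, summed to 82718 CPM in the Hdc-CFP-positive and 233 CPM in the Hdc-CFP-depleted library, and all 5 were higher. The 3 measured surface mucous markers summed to 3442 CPM in the Hdc-CFP-positive and 147672 CPM in the Hdc-CFP-depleted library, and the 4 measured chief cell markers to 16620 CPM in the Hdc-CFP-positive and 66374 CPM in the Hdc-CFP-depleted library. The 3 mucous neck markers summed to 855 CPM in the Hdc-CFP-positive and 6986 CPM in the Hdc-CFP-depleted library, and the 3 macrophage markers to 5.58 CPM in the Hdc-CFP-positive and 1106 CPM in the Hdc-CFP-depleted library. Tff1, a surface mucous marker, and Lipf, a chief cell marker, were at 0 in both libraries. Gkn1 alone had 3064571 counts in the Hdc-CFP-depleted library. Whether reads of Tff1 and Lipf were lost in counting was not tested, so the 0 is not read as absence of their RNA. A gene is called higher or lower where it differed at least 2-fold with an interval clear of 1, a count of 0 being held to a floor of 3 counts.

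Of the 10 genes 9 were lower in the Hdc-CFP-positive library and 0 higher, where 21.9% of the 16682 genes with at least 10 counts in a library were lower (16.7% without a scaling factor). They included 5 of 6 parietal-restricted and 4 of 4 shared genes. The 10 genes together took 22490 counts, or 0.209% of gene counts, in the Hdc-CFP-positive library and 552797 counts, or 1.09%, in the Hdc-CFP-depleted library. Their median log2 fold (Hdc-CFP-positive over Hdc-CFP-depleted) was -2.47, against -0.05 over all measured genes. Between the genes the size of the difference ran from 1.52-fold for Aqp4 to 19.0-fold for Car2. Fewer parietal cells and less of these RNAs per cell cannot be told apart in such bulk libraries. None of the 10 genes was at 0 in either library.

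**Figure D1:**
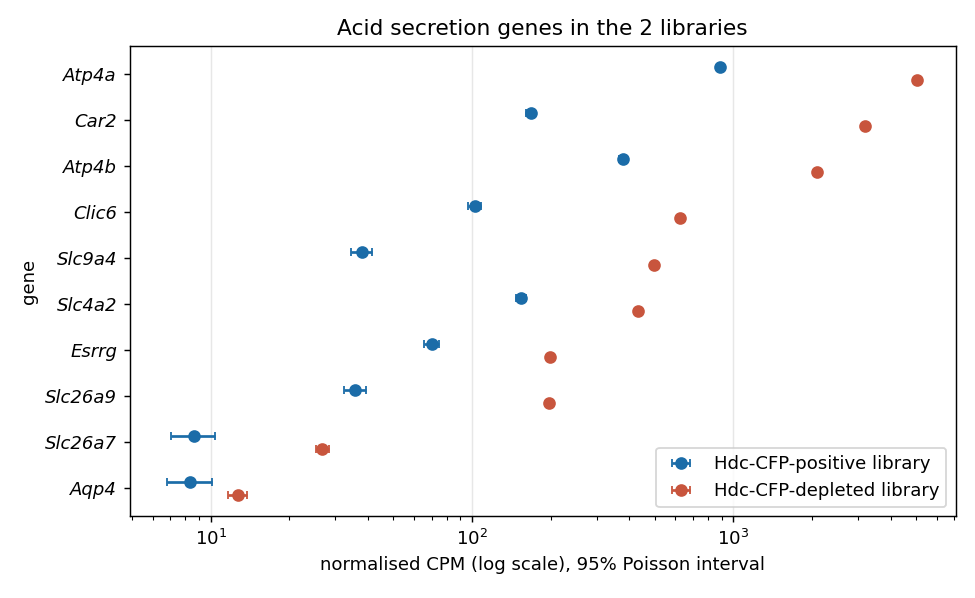
Normalised CPM (log axis) of the 10 acid secretion genes, 1 point per library with its 95% Poisson interval, Hdc-CFP-positive above Hdc-CFP-depleted in each row. Every Hdc-CFP-positive point lies left of its Hdc-CFP-depleted point, with the narrowest gap at Aqp4 (8.38 CPM Hdc-CFP-positive, 12.7 CPM Hdc-CFP-depleted) and the widest at Car2 (167 CPM Hdc-CFP-positive, 3187 CPM Hdc-CFP-depleted).

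Per kilobase of exon, the pump subunit genes had the highest levels of the 10 in both libraries. Atp4a (ENSMUSG00000005553), which encodes the catalytic alpha subunit, had 10791 counts (886 CPM) in the Hdc-CFP-positive and 227048 counts (5056 CPM) in the Hdc-CFP-depleted library. Atp4b (ENSMUSG00000031449), which encodes the beta subunit needed to fold and traffic the pump, had 4584 counts (376 CPM) in the Hdc-CFP-positive and 93567 counts (2084 CPM) in the Hdc-CFP-depleted library. The intervals of the libraries lay far apart for both genes, which were 5.71-fold [5.60 to 5.82] and 5.54-fold lower [5.37 to 5.70] in the Hdc-CFP-positive library. Per kilobase of exon, Atp4b stood at 1.06 times the level of Atp4a in the Hdc-CFP-positive and 1.03 times in the Hdc-CFP-depleted library, so the subunit messages were near equal in level in each. By level per kilobase Atp4a ranked 65th of 16149 genes in the Hdc-CFP-positive library and 25th in the Hdc-CFP-depleted library. Atp4b ranked 60th in the Hdc-CFP-positive and 24th in the Hdc-CFP-depleted library.

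Of the other 8 genes, the nearest to the pump in fold was Slc26a9, whose product carries chloride at the apical membrane. It had 436 counts (35.8 CPM) in the Hdc-CFP-positive and 8882 counts (197.8 CPM) in the Hdc-CFP-depleted library, 5.52-fold lower [5.02 to 6.10], and the libraries did not overlap. Clic6 encodes a member of the chloride intracellular channel family. Its 1245 counts (102 CPM) in the Hdc-CFP-positive and 27976 counts (623 CPM) in the Hdc-CFP-depleted library made it 6.09-fold lower [5.76 to 6.45]. Both lay close to the pump in fold, and Slc26a9 is also known from surface epithelium.

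Because Atp4a and Slc26a9 differed by nearly the same fold while Slc4a2, described below, differed less, the 250 bases before a start site of each are shown, from RefSeq promoter windows of build GRCm38.p6, 5′ to 3′ on the + strand. Windows of this kind were found for 4 of the 10 genes (8 windows). Capitals mark matches, on either strand, to AGATAA, which factors of the GATA4 family bind, and to the box with the letters TATAAA. The matches to the box on the 2 strands overlap in Slc26a9.
Atp4a, chr7:30711959-30712208: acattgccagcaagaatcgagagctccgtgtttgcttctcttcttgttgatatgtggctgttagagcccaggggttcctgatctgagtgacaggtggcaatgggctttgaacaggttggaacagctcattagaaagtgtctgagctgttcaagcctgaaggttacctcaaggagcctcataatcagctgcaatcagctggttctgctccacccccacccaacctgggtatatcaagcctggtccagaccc
Slc26a9, chr1:131743772-131744021: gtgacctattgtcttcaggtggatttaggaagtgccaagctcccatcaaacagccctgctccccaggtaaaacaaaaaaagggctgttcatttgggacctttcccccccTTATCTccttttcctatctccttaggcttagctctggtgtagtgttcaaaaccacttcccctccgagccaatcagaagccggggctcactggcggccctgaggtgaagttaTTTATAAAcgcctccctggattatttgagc
Slc4a2, chr5:24424982-24425231: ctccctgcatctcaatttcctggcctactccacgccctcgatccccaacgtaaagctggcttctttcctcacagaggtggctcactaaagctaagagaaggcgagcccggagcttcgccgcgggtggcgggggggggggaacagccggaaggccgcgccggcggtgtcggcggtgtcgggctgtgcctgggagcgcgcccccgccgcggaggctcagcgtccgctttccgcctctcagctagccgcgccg
Slc26a9 held the first motif on the reverse strand 141 bases before its start site and the second on the forward strand 28 bases before it. Neither the Atp4a nor this Slc4a2 window held the letters of either. Of the windows not shown, an Esrrg window held the second motif on the reverse strand 19 bases before its start site. The rest held neither. The first motif occurred in 9.99% and the second in 12.4% of the 32851 windows kept. The motif AAGGTCA, bound by estrogen-related receptors such as the product of Esrrg, occurred in 4.08% of the windows kept. It occurred in 0 of the 8 windows of the 4 genes that had windows. The G and C content was 51.2% for Atp4a and 69.2% for Slc4a2, with a median of 52.4% over the windows kept. These are matches of letters and say nothing of binding.

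Car2 (ENSMUSG00000027562), the cytosolic carbonic anhydrase, differed most. It had 2039 counts (167 CPM) in the Hdc-CFP-positive and 143087 counts (3187 CPM) in the Hdc-CFP-depleted library, 19.0-fold lower [18.2 to 19.9]. Per kilobase of exon it stood at 69.1 CPM in the Hdc-CFP-positive library, well under the 236 CPM of Atp4a, whereas in the Hdc-CFP-depleted library the same quantity was 1316 CPM for Car2 and 1344 CPM for Atp4a. Car2 is also known from surface cells, red blood cells and pancreatic ducts. The surface mucous markers Gkn1, Gkn2 and Muc5ac were 37.5-fold to 44.2-fold lower in the Hdc-CFP-positive library. Krt19, a duct and surface epithelial keratin, was 22.1-fold lower [21.1 to 23.1], while Cftr of the duct list had 2 counts in the Hdc-CFP-positive and 56 in the Hdc-CFP-depleted library. Red cell markers were near 0, at 0 to 3 counts each in the Hdc-CFP-positive and 9 to 20 in the Hdc-CFP-depleted library for Hba-a1, Hbb-bs and Alas2. The part of surface or duct cells in the Car2 difference was not tested.

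The basolateral exchangers fell by unequal amounts. Slc9a4 encodes a sodium-proton exchanger of parietal cells that is also known from chief cells. It had 461 counts (37.9 CPM) in the Hdc-CFP-positive and 22209 counts (494.6 CPM) in the Hdc-CFP-depleted library, 13.1-fold lower [11.9 to 14.4]. The chief cell markers Pgc, Chia1 and Pga5 were 3.98-fold to 5.51-fold lower. Cblif, which encodes intrinsic factor, was at 493 CPM in the Hdc-CFP-positive and 858 CPM in the Hdc-CFP-depleted library. The fold of Slc9a4 was larger than that of each of these markers. The part of chief cells in the Slc9a4 difference was not tested. Slc4a2, the main basolateral chloride-bicarbonate exchanger, had 1874 counts (154 CPM) in the Hdc-CFP-positive and 19320 counts (430 CPM) in the Hdc-CFP-depleted library, 2.80-fold lower [2.67 to 2.93]. Slc26a7, a second chloride-bicarbonate exchanger, had 105 counts (8.62 CPM) in the Hdc-CFP-positive and 1202 counts (26.8 CPM) in the Hdc-CFP-depleted library, 3.10-fold lower [2.54 to 3.83]. In the GENCODE M21 annotation, 13.7% of the exon bases of Slc4a2 and 21.3% of those of Slc9a4 are overlapped by genes on the opposite strand, so reads there may be missing or shared. For the other 8 genes the overlap was 0 bases.

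Aqp4 and Esrrg differed least among the parietal-restricted genes. Aqp4, the basolateral water channel, had 102 counts (8.38 CPM [6.83 to 10.2]) in the Hdc-CFP-positive and 571 counts (12.7 CPM [11.7 to 13.8]) in the Hdc-CFP-depleted library. Its ratio of Hdc-CFP-depleted to Hdc-CFP-positive of 1.52 [1.23 to 1.89] did not reach 2-fold, and without a scaling factor its interval took in 1. Aqp4 is also known from glia, and the part of glia in its counts was not tested. Esrrg, the estrogen-related receptor of parietal cells, had 853 counts (70.0 CPM) in the Hdc-CFP-positive and 8935 counts (199 CPM) in the Hdc-CFP-depleted library, 2.84-fold lower [2.65 to 3.05].

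**Figure D2:**
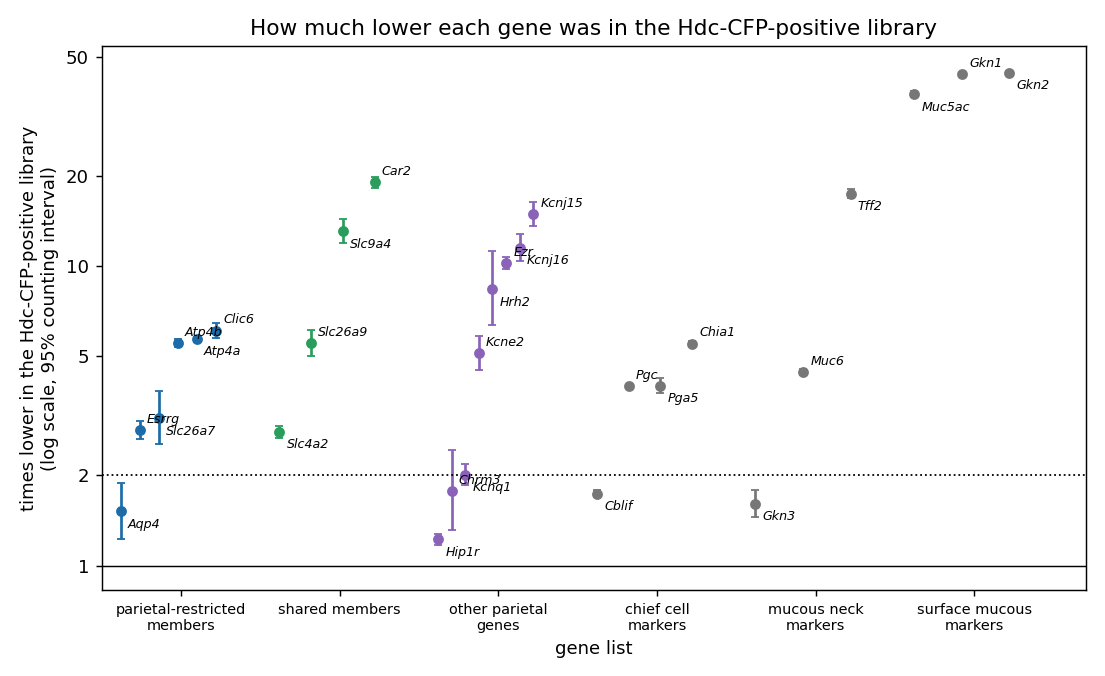
Times lower in the Hdc-CFP-positive than in the Hdc-CFP-depleted library (log axis) for the parietal-restricted and shared genes, 8 other parietal genes, and measured markers of chief, mucous neck and surface mucous cells, with 95% counting intervals. The dotted line is 2-fold. Atp4a, Atp4b, Clic6 and Slc26a9 lie between 5.52-fold and 6.09-fold, while Car2 and Slc9a4 lie above them and Aqp4 lies under 2-fold.

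Levels can be ordered between genes per kilobase of exon. In the Hdc-CFP-positive library the order was Atp4b (249 CPM), Atp4a (236 CPM), Car2 (69.1 CPM), Clic6 (26.1 CPM), Slc4a2 (18.5 CPM), Esrrg (11.3 CPM), Slc9a4 (8.30 CPM), Slc26a9 (6.85 CPM), Slc26a7 (1.59 CPM) and Aqp4 (1.34 CPM). In the Hdc-CFP-depleted library it was Atp4b (1381 CPM), Atp4a (1344 CPM), Car2 (1316 CPM), Clic6 (159 CPM), Slc9a4 (108 CPM), Slc4a2 (51.7 CPM), Slc26a9 (37.8 CPM), Esrrg (32.1 CPM), Slc26a7 (4.93 CPM) and Aqp4 (2.04 CPM). The first 4 places were the same in both, and only the neighbours Slc26a7 and Aqp4 in the Hdc-CFP-positive library had overlapping counting intervals. The pump subunits and Car2 made up 77.4% of the CPM of the 10 genes in the Hdc-CFP-positive and 83.9% in the Hdc-CFP-depleted library.

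The parietal-restricted genes had a median log2 fold of -2.05 and the shared genes -3.09. Both sets were spread widely, from 1.52-fold to 6.09-fold in the first and from 2.80-fold to 19.0-fold in the second, so the ranges overlapped. The order of the medians rested on Slc9a4. With it among the parietal-restricted genes, the medians were -2.47 and -2.47.

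The ratio of each gene to Atp4a within a library needs no scaling between libraries. For every 1000 counts of Atp4a there were 425 of Atp4b in the Hdc-CFP-positive and 412 in the Hdc-CFP-depleted library, a ratio of ratios of 1.03 [0.995 to 1.07]. Slc26a9 had 40.4 in the Hdc-CFP-positive and 39.1 in the Hdc-CFP-depleted library (1.03 [0.934 to 1.14]). For these 2 of the 9 genes compared the interval included 1, and Clic6, at 115 in the Hdc-CFP-positive and 123 in the Hdc-CFP-depleted library (0.936 [0.881 to 0.994]), lay just below it. Another 4 genes had more counts per Atp4a count in the Hdc-CFP-positive library. Aqp4 had 9.45 in the Hdc-CFP-positive and 2.51 in the Hdc-CFP-depleted library for every 1000 counts of Atp4a, a ratio of ratios of 3.76 [3.01 to 4.65]. Slc4a2 had 174 in the Hdc-CFP-positive and 85.1 in the Hdc-CFP-depleted library (2.04 [1.94 to 2.15]). Esrrg had 79.0 in the Hdc-CFP-positive and 39.4 in the Hdc-CFP-depleted library (2.01 [1.87 to 2.16]), and Slc26a7 had 9.73 in the Hdc-CFP-positive and 5.29 in the Hdc-CFP-depleted library (1.84 [1.49 to 2.25]). Slc9a4 had fewer, with 42.7 in the Hdc-CFP-positive and 97.8 in the Hdc-CFP-depleted library (0.437 [0.397 to 0.480]), as did Car2, with 189 in the Hdc-CFP-positive and 630.2 in the Hdc-CFP-depleted library (0.300 [0.286 to 0.315]). Both parietal-restricted and shared genes lay on either side of 1, with Slc4a2 among those above it and Clic6 among those below it. At the Hdc-CFP-depleted ratio to Atp4a, the Hdc-CFP-positive library would hold 425 Esrrg counts against 853 measured, 27.1 Aqp4 counts against 102, and 6801 Car2 counts against 2039.

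**Figure D3:**
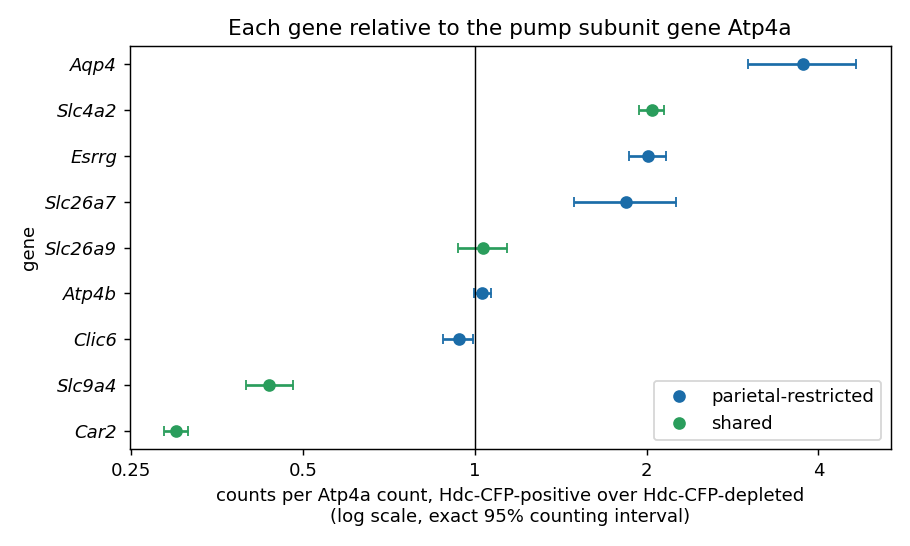
Counts per Atp4a count in the Hdc-CFP-positive library divided by the same in the Hdc-CFP-depleted library (log axis), with exact 95% counting intervals, for 9 genes. Atp4b and Slc26a9 include 1, Car2 (0.300) and Slc9a4 (0.437) lie well below it, and Slc26a7, Esrrg, Slc4a2 and Aqp4 lie between 1.84 and 3.76.

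All 8 further parietal markers were measured, summing to 548 CPM in the Hdc-CFP-positive and 3251 CPM in the Hdc-CFP-depleted library. Ezr alone held 173 CPM of the first sum and 1775 CPM of the second. Of the 8 markers 6 were lower, against 21.9% of all measured genes. The potassium channel gene Kcnj15 was 14.9-fold lower [13.6 to 16.3], its relative Kcnj16 11.5-fold lower [10.4 to 12.8] and Ezr, which encodes the canalicular linker ezrin, 10.2-fold lower [9.81 to 10.7]. Hrh2, the H2 histamine receptor gene, had 4.27 CPM in the Hdc-CFP-positive and 35.7 CPM in the Hdc-CFP-depleted library (8.37-fold lower [6.35 to 11.2]). The subunits of the apical potassium channel that recycles potassium for the pump differed from each other, with Kcne2 5.12-fold lower [4.50 to 5.83] and Kcnq1 2.01-fold lower [1.85 to 2.19]. Kcnq1 fell short of 2-fold under 4 of the 5 other scalings and filters, its lowest value being 1.57-fold. Chrm3, the acetylcholine receptor of parietal cells, had 51 counts in the Hdc-CFP-positive and 334 in the Hdc-CFP-depleted library (ratio of Hdc-CFP-depleted to Hdc-CFP-positive 1.78 [1.32 to 2.43]), and Hip1r, an endocytic adaptor, 223 CPM in the Hdc-CFP-positive and 273 CPM in the Hdc-CFP-depleted library, an order that turned without a scaling factor.

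Over 4 lists of acid secretion genes, 65 of 66 were measured, with 29 (44.6%) lower and 10 (15.4%) higher in the Hdc-CFP-positive library, against 21.9% each way over all measured genes. Without a scaling factor 27 were lower and 12 higher, against 16.7% lower and 28.4% higher over all measured genes. Ion transport genes were lower in 10 of 16 cases and higher in 0. These became 9 and 1 without a scaling factor and with the most abundant genes left out of the total. Atp1b1, a sodium pump subunit gene, did not reach 2-fold, at 590.3 CPM in the Hdc-CFP-positive and 1039 CPM in the Hdc-CFP-depleted library. Of 15 genes of the tubulovesicles and canaliculus, 8 were lower and 1 higher. Lasp1, an actin-binding protein gene, was 2.83-fold lower [2.71 to 2.95] and Vamp2, a vesicle fusion gene, 6.96-fold higher [6.53 to 7.43]. Of 17 regulators and secreted factors, 8 were lower, among them the transcription factor gene Gata4 (3.71-fold [3.54 to 3.88]) and Ckmt1, a mitochondrial creatine kinase gene (11.6-fold [10.9 to 12.3]), and 3 were higher, among them Hif1a (2.02-fold [1.90 to 2.14], under 2-fold with no filter on low counts). Genes of stimulation by hormones and transmitters went less one way, with 3 of 17 lower and 6 higher. Cckbr, the gastrin receptor gene that ECL cells share with parietal cells, was 31.0-fold higher [28.4 to 33.9], while 8 of the 17 genes were called neither higher nor lower. Among these, Gna11, a G protein gene, was at 137 CPM in the Hdc-CFP-positive and 165 CPM in the Hdc-CFP-depleted library, an order that turned without a scaling factor, and Adcy6, an adenylyl cyclase gene, at 282 CPM in the Hdc-CFP-positive and 476 CPM in the Hdc-CFP-depleted library.

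Relatives of the 10 genes by family were counted to see which other isoforms the libraries held. Of 67 listed relatives 50 were measured, with 21 (42%) lower and 12 (24%) higher, against 21.9% each way over all measured genes. Without a scaling factor 18 were lower and 16 higher, against 16.7% lower and 28.4% higher over all measured genes. The share of relatives that were higher was thus near that of all genes. In the carbonic anhydrase family 4 of 12 were lower and 4 higher, or 4 lower and 6 higher without a scaling factor and with the most abundant genes left out of the total. Car4, a membrane-anchored carbonic anhydrase gene, had 2013 counts (165 CPM) in the Hdc-CFP-positive and 19 counts (0.423 CPM) in the Hdc-CFP-depleted library, 391-fold higher [249.5 to 650.3]. Per kilobase of exon Car4 stood at 84.1 CPM in the Hdc-CFP-positive library beside 69.1 CPM for Car2, and at 0.215 CPM in the Hdc-CFP-depleted library beside 1316 CPM for Car2. Car11, whose product lacks the catalytic activity, was 27.8-fold higher [21.6 to 36.4]. Car9, a membrane carbonic anhydrase gene, was 9.39-fold lower [8.52 to 10.4] and Car13, a cytosolic one, 18.9-fold lower [14.8 to 24.3].

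Of 6 measured relatives of Slc4a2, 1 was lower and 2 were higher. Slc4a3, a chloride-bicarbonate exchanger gene of excitable tissue, was 14.5-fold higher [12.4 to 17.1], and Slc4a8, the gene of a sodium-driven exchanger, which was picked out for its value, stood 41.1-fold higher [31.5 to 54.5]. Slc4a4, a sodium-bicarbonate cotransporter gene, was 9.24-fold lower [7.96 to 10.8], and Slc4a7, of the same kind, stayed under 2-fold at 93.8 CPM in the Hdc-CFP-positive and 104 CPM in the Hdc-CFP-depleted library. Of 8 relatives of Slc9a4, 6 were lower, among them Slc9a2 by 11.0-fold [9.81 to 12.5]. Slc9a8 stayed under 2-fold, at 61.6 CPM in the Hdc-CFP-positive and 71.2 CPM in the Hdc-CFP-depleted library. Slc9a7, an exchanger gene of intracellular membranes also picked out for its value, had 375 counts in the Hdc-CFP-positive and 36 in the Hdc-CFP-depleted library, 38.4-fold higher [27.2 to 55.7]. The orders of Slc4a7 and Slc9a8 turned without a scaling factor.

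Of 7 measured relatives of Slc26a7 and Slc26a9, 4 were lower and 3 higher. Slc26a2, a sulfate transporter gene, was 4.07-fold lower [3.68 to 4.52] and Slc26a10 13.9-fold lower [8.93 to 22.8]. Slc26a6, an anion exchanger gene, was 2.42-fold lower [1.90 to 3.11] and fell short of 2-fold without a scaling factor. Of 4 relatives of Clic6, 2 were lower, among them Clic1, 5.17-fold [4.83 to 5.53], while Clic4 was at 101 CPM in the Hdc-CFP-positive and 128 CPM in the Hdc-CFP-depleted library, an order that turned without a scaling factor. Aqp3, a water and glycerol channel gene, had 8 counts in the Hdc-CFP-positive and 1832 in the Hdc-CFP-depleted library and was 62.1-fold lower [31.5 to 144], and Aqp11 was 4.76-fold lower [3.50 to 6.63]. Aqp8, known from pancreatic acinar cells among others, had 94 counts in the Hdc-CFP-positive and 1 in the Hdc-CFP-depleted library (ratio 347 [60.7 to 13835]). Of the 5 pancreatic acinar markers, Cel, Prss2 and Cela2a summed to 1531 CPM in the Hdc-CFP-positive and 3.76 CPM in the Hdc-CFP-depleted library, Pnlip had 3 counts in the Hdc-CFP-positive and 2 in the Hdc-CFP-depleted library and Cpa1 was at 0 in both. The part of acinar RNA in the Aqp8 and Car4 counts was not tested, nor was whether reads of Cpa1 were lost in counting. Esrra, a relative of Esrrg, was 3.58-fold lower [3.24 to 3.96], and Esrrb had 67 counts in the Hdc-CFP-positive and 449 in the Hdc-CFP-depleted library (ratio of Hdc-CFP-depleted to Hdc-CFP-positive 1.82 [1.40 to 2.39]).

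**Figure D4:**
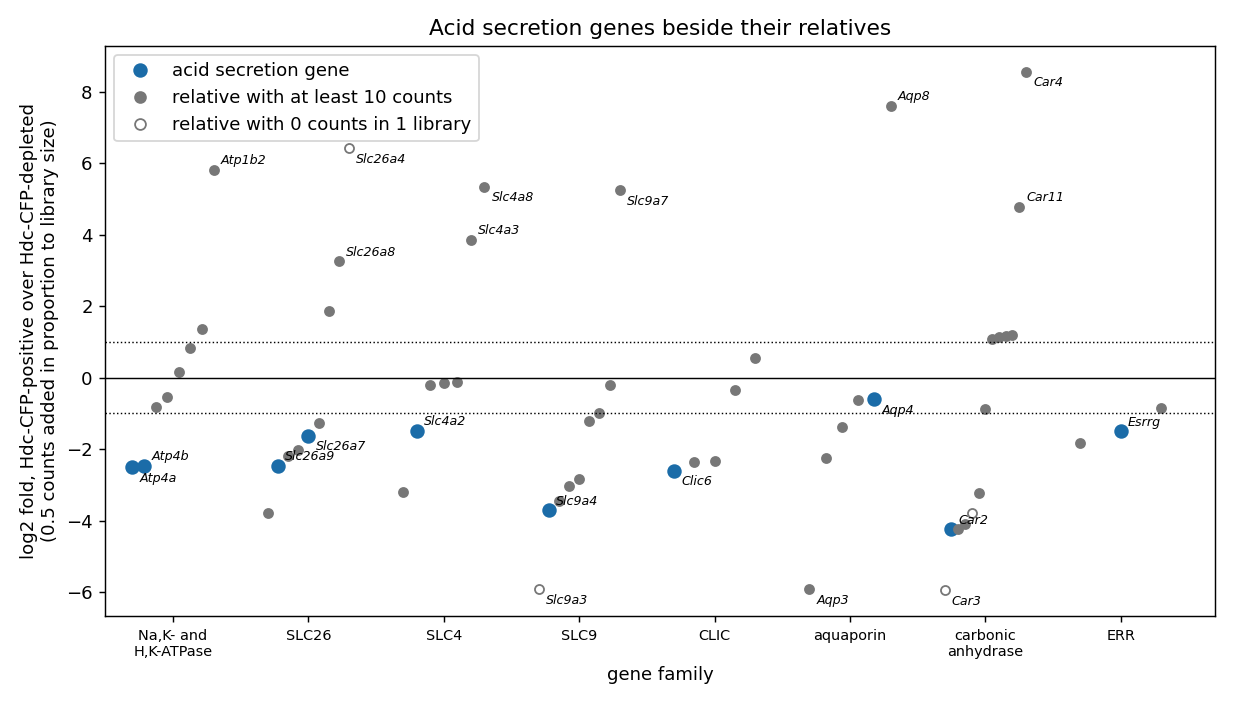
Log2 fold of Hdc-CFP-positive over Hdc-CFP-depleted for the 10 acid secretion genes (blue) and their relatives with at least 10 counts in a library (grey, open where a library had 0 counts), by gene family, with 0.5 counts added in proportion to library size. Dotted lines mark 2-fold. The acid secretion genes all lie below 0, from -0.60 for Aqp4 to -4.25 for Car2, while single relatives such as Car4, Aqp8 and Slc4a8 lie far above.

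With 2 libraries, likeness to Atp4a can be measured only as closeness of the log2 fold. Among 693 other genes with at least 10000 counts in the Hdc-CFP-depleted library, the 5 nearest were Gsr, Slc44a2, Tkt, Glul and Pcx, at 5.64-fold to 5.75-fold lower, all within 0.02 of Atp4a on the log2 scale. Gsr encodes glutathione reductase, Tkt transketolase, Glul glutamine synthetase and Pcx pyruvate carboxylase. Closeness of a single fold says nothing of shared function or control.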

How the data were processed

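RNA was sequenced from 1 Hdc-CFP-positive and 1 Hdc-CFP-depleted library. The submitters' processing notes name TopHat2 2.0.07, HTSeq and the build mm9. No source used here gives the HTSeq version, strand setting or annotation release. The authors deposited raw counts per Ensembl gene, without normalisation. The 5 summary rows (no feature 9.20% and 4.91% of counted alignments, ambiguous 1.45% and 1.11%, not unique 24.2% and 34.3% in the Hdc-CFP-positive and Hdc-CFP-depleted library) stayed out of library sizes.

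Symbols, exon lengths and overlaps came from GENCODE M21 (GRCm38), which named 32642 of 37681 identifiers; Cblif was matched through an older symbol. Scaling used edgeR 4.0.16 TMM factors (1.13 and 0.882) over genes with at least 10 counts in a library. Folds have exact Clopper-Pearson 95% intervals, CPM exact Poisson intervals, and ratios to Atp4a exact conditional intervals (R 4.3.3); all cover counting error only. Median log2 folds used 0.5 added counts in proportion to library size. Folds and intervals were tested on simulated data. No p-value is given, since each group held 1 library. The Atp4a, Atp4b, Clic6, Aqp4, Esrrg, Slc26a7 and Car2 transcripts shared 0 of their 50-base words, read on either strand, with other genes. Those of Slc9a4 shared 18.4%, Slc4a2 12.1% and Slc26a9 0.570%, so counts of these 3 are less certain. For Slc9a4 and Slc4a2 nearly all shared words came from the overlapping opposite-strand genes, so this is the same overlap as given above. The genes and lists were chosen with earlier results of these data known. From each list, up to 4 genes are named, the 2 with the most CPM in each library, besides markers and the 5 genes nearest to Atp4a; others are said to be picked out for their values. Other settings tried were unscaled totals, DESeq2 1.42.0 size factors, the upper quartile, unscaled totals lacking the 20 most abundant genes of either library, no filter on low counts, and Slc9a4 counted as parietal-restricted. Some genes of these lists are counted in them but not reported here by name.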

Additional observations from a re-analysis of the deposited data

How the results depend on the processing

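All 10 acid secretion genes kept their direction and their call under each of the 5 scaling and filter alternatives, with 9 lower and Aqp4 short of 2-fold in every one. Without a scaling factor, all log2 folds moved by 0.36 and the medians became -1.69 for the parietal-restricted and -2.72 for the shared genes. With the most abundant genes left out of the total they were -1.84 and -2.87, and with no filter on low counts -2.16 and -3.20. With Slc9a4 counted as parietal-restricted they were -2.47 and -2.47. A scaling moves every gene alike, so the distance between the medians and the ratios to Atp4a do not depend on it. Without a factor, Aqp4 had a log2 fold of -0.24 with an interval that took in 1 (lower end of the ratio of Hdc-CFP-depleted to Hdc-CFP-positive 0.954), and 2792 measured genes were lower and 4741 higher, against 3651 and 3652 with the factors. No paired analysis was possible because each group held 1 library, and for the same reason no library could be left out.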

Other observations

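Among the regulators and secreted factors, these genes were named after their values were seen. Ppargc1b, which encodes a coactivator of estrogen-related receptors, was 10.1-fold lower [7.53 to 13.9] in the Hdc-CFP-positive library. Ppargc1a, its relative, did not reach 2-fold, with 16.0 CPM in the Hdc-CFP-positive and 13.5 CPM in the Hdc-CFP-depleted library. Perm1, a muscle gene under control of the same receptors, was 3.08-fold higher [2.65 to 3.57]. Of the secreted factors listed, Shh was 5.77-fold lower [4.94 to 6.78], Tgfa 2.70-fold lower [2.40 to 3.06] and Areg, with 18 counts in the Hdc-CFP-positive and 3298 in the Hdc-CFP-depleted library, 49.7-fold lower [31.4 to 83.9]. Of the other secreted factors listed, 3 were called neither higher nor lower. Hbegf had 61.1 CPM in the Hdc-CFP-positive and 120.3 CPM in the Hdc-CFP-depleted library, and with no filter on low counts it was called lower, by 2.14-fold. Vegfb had 34.7 CPM in the Hdc-CFP-positive and 26.3 CPM in the Hdc-CFP-depleted library, and Bmp4 0 counts in the Hdc-CFP-positive and 11 in the Hdc-CFP-depleted library. Egf was higher, with 25.3 CPM in the Hdc-CFP-positive and 1.92 CPM in the Hdc-CFP-depleted library, 13.2-fold [10.4 to 17.0].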
